A study of Homo sapiens with 8 samples.

Results

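The 10 genes described here were the EGF receptor family and its ligands, chosen by symbol: the receptors EGFR, ERBB2, ERBB3 and ERBB4, and the ligands AREG, EREG, HBEGF, TGFA, BTC and NRG1. They were 10 of the 58302 genes in the expression tables, and 9 of them had enough counts to be tested. The cells were A549, a human lung adenocarcinoma line. AXL, a receptor tyrosine kinase, was lowered with a short hairpin RNA or inhibited with TP-0903, a small-molecule AXL kinase inhibitor, and the study looked for routes of resistance to the drug. The 4 groups were AXL shRNA cells (libraries P15 and P3), control shRNA cells (P15 and P3), cells given TP-0903 at 40 nM (P17 and P4), and control cells (P17 and P4). All were grown in F12K medium with serum, and each group had 2 libraries described as biological replicates. The hairpin sequence, the exposure time, what the control cells received and the meaning of the P number were not given in these sources. Nothing states separate cultures for each library, so p-values measure the spread between these libraries.

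The EGF receptors are cell-surface kinases that pair with each other when a ligand binds. EGFR binds AREG, EREG, HBEGF, TGFA and BTC, ERBB3 and ERBB4 bind NRG1, and ERBB2 has no known ligand and serves as the preferred partner of the others. The ligands are made as membrane-anchored precursors and are released by proteases of the ADAM family. Signals from these receptors run through the RAS, MAPK and PI3K pathways, and raised activity of the family is a known way for lung cancer cells to bypass the loss of another receptor kinase. RNA levels say nothing of receptor phosphorylation or of ligand release.

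In GRCh38 with GENCODE 29, EGFR lies at chr7:55019021-55211628 and ERBB3 at chr12:56076799-56103505, both on the plus strand, and ERBB4 at chr2:211375717-212538841 on the minus strand. AREG and EREG lie on the plus strand at chr4:74445134-74455009 and chr4:74365143-74388751, and NRG1 at chr8:31639386-32767959. BTC (chr4:74744759-74794686), HBEGF (chr5:140332843-140346631) and TGFA (chr2:70447280-70554193) lie on the minus strand. All 10 are annotated as protein coding, and the values below are sums over all transcripts of a gene.

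Library totals ran between 30067011 and 44217023 expected counts. AXL itself stood at 55.4 and 62.9 CPM (counts scaled to library size with TMM factors) in AXL shRNA cells, against 85.0 and 139 CPM in control shRNA cells. The groups did not overlap, yet the log2 fold change of -0.92 (SE 0.42) had an adjusted p of 0.12 in edgeR's quasi-likelihood test, and 8.58e-04 with the P number as a block. AXL stood at 279 and 153 CPM with TP-0903 and at 216 and 105 CPM in control cells (log2 fold change 0.43, SE 0.41, adjusted p = 0.544, and 0.0354 with the block). The keratins KRT8 and KRT18 were present in every library, at 2631 to 12189 and 1944 to 7805 CPM. The lung lineage genes NKX2-1, SFTPB and SFTPC, in contrast, reached no more than 0.272, 0.436 and 0.097 CPM. Of genes that define other cell types, the leukocyte gene PTPRC reached 0.0617 CPM, and the endothelial gene KDR and the erythroid gene ALAS2 were at 0. Other markers of the same lists were present. The monocyte and macrophage gene CD68 ran between 9.22 and 20.8 CPM. The summed leukocyte markers were 17.1 to 20.5 CPM in AXL shRNA cells and 18.7 to 28.8 CPM in control shRNA cells, and of the 3 tested, CD79A rose and CD14 fell with AXL shRNA. The summed endothelial markers were 3.27 to 9.87 CPM in AXL shRNA cells and 0.359 to 2.77 CPM in control shRNA cells, most of it CDH5, the 1 tested, which passed only with the block. The summed erythroid markers were 0.664 to 1.21 CPM in AXL shRNA cells and 0.0299 to 0.123 CPM in control shRNA cells, and the 1 tested rose. With TP-0903 the summed leukocyte markers were 12.12 to 16.93 CPM, against 18.55 to 19.28 CPM in control cells. The endothelial sums (0.6441 to 1.789 against 1.115 to 1.974 CPM) and erythroid sums (0.08784 to 0.09254 against 0.02704 to 0.1734 CPM) overlapped. None of these 3 lists had a gene called with TP-0903 by edgeR without the block or by DESeq2, and 1 leukocyte marker was lower with the block, and 1 at an unadjusted p below 0.05. The summed epithelial markers were 20490 to 24330 CPM in AXL shRNA cells and 6186 to 6952 CPM in control shRNA cells, and 11390 to 12490 CPM with TP-0903 and 8593 to 10070 CPM in control cells. Of the 7 epithelial markers tested, 5 rose and 0 fell with AXL shRNA (5 and 0 at an unadjusted p below 0.05 and by DESeq2), and 2 rose and 0 fell with TP-0903 (2 and 1 at an unadjusted p below 0.05, by DESeq2 and with the block). EPCAM, an epithelial adhesion gene, stood at 3.89 and 3.07 CPM with TP-0903 and at 7.22 and 7.65 CPM in control cells. The summed fibroblast markers were 33.9 to 61.4 CPM in AXL shRNA cells and 18.7 CPM in both control shRNA libraries, and of the 5 tested, 2 rose (4 with the block). Mitochondrial genes took 6.79% and 7.78% of the counts in AXL shRNA cells, against 3.94% and 5.17% in control shRNA cells, and 5.16% and 5.82% with TP-0903, against 3.68% and 3.58% in control cells. The part of these shifts in the results for the receptor family was not tested, and fewer cells of a kind cannot be told apart from less RNA per cell in bulk libraries.

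With AXL shRNA, 5 of the 9 tested genes passed an adjusted p of 0.05: EGFR and NRG1 rose, and ERBB2, TGFA and BTC fell. Over all 17676 tested genes 37.5% passed in this comparison, 18.5% higher and 19% lower, so a count of 5 among 9 stands against a high background. With TP-0903 only HBEGF passed, and it rose. The background there was 11.3%, of which 4.9% higher and 6.35% lower. With the P number as a block, 6 of 9 passed with AXL shRNA against a background of 51.7%, and 5 of 9 with TP-0903 against 26.3%. The median log2 fold change of the 9 genes was -0.17 with AXL shRNA, where that of all tested genes was -0.013, and 0.35 with TP-0903, where that of all genes was -0.015. Of all calls, 49.4% were higher with AXL shRNA and 43.5% with TP-0903 under TMM, against 32.8% and 33.3% under scaling by library totals and 31.3% and 38.3% on log2(TPM + 1). Scaling by library totals moved the median of all genes with AXL shRNA to -0.214 on the log2 scale, and TPM moved it to -0.148.

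**Figure D1:**
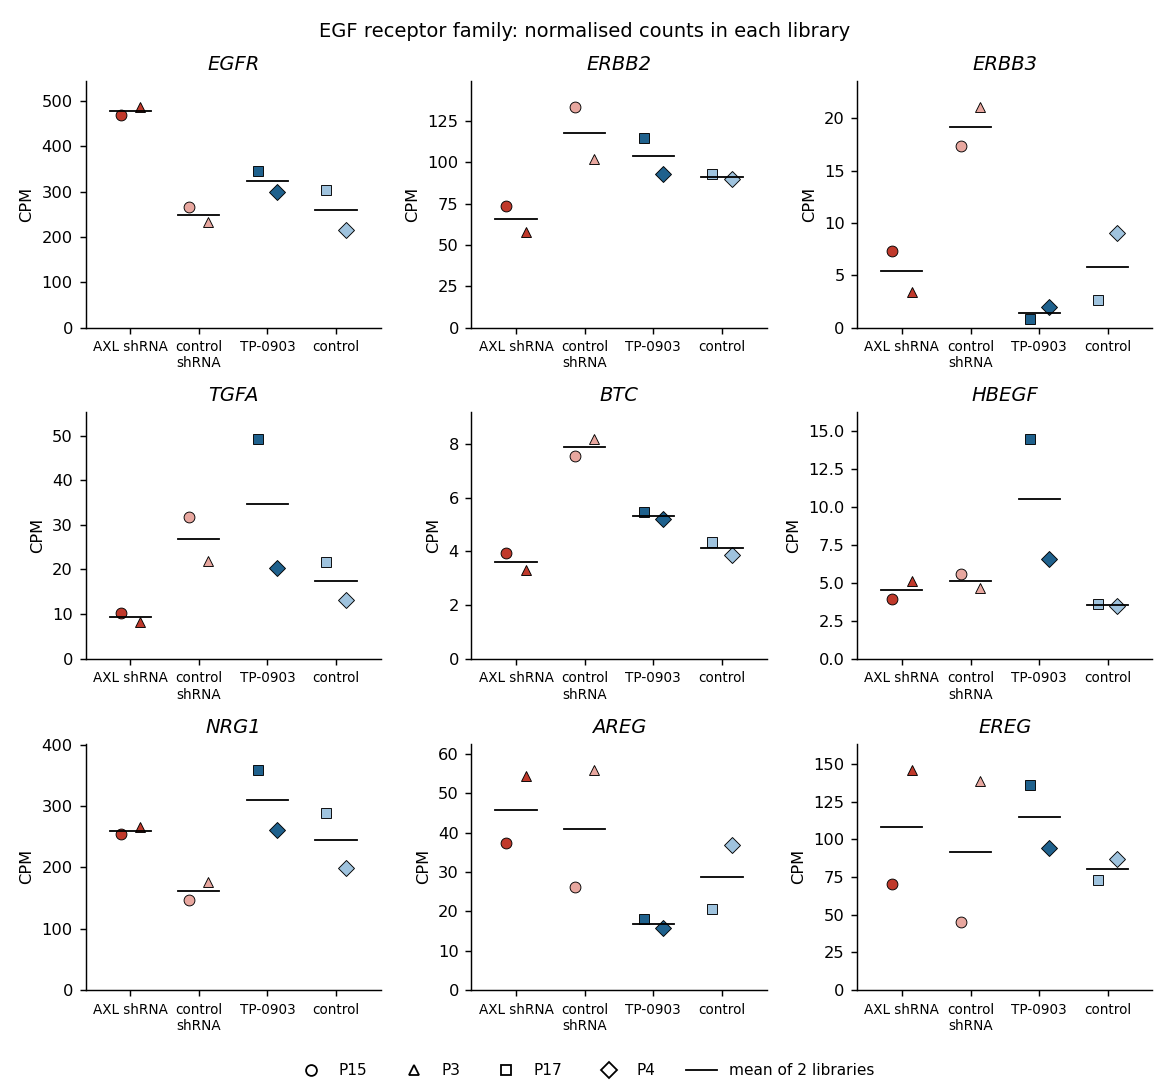
Normalised counts (CPM, vertical axes from 0) of the 9 tested genes in the 8 libraries, with one symbol per P number and a line at the mean of the 2 libraries of a group. EGFR and NRG1 sit higher and ERBB2, TGFA and BTC lower in AXL shRNA cells than in control shRNA cells, while HBEGF is highest in the TP-0903 libraries.

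EGFR, the founding receptor of the family, rose with AXL shRNA. It stood at 469 and 485 CPM in AXL shRNA cells and at 265 and 233 CPM in control shRNA cells. Both AXL shRNA libraries lay above every other library of the series, including the TP-0903 ones. The means were 477 ± 11.4 CPM and 249 ± 23.0 CPM (SD, n = 2 each), and the log2 fold change was 0.94 (SE 0.18, adjusted p = 0.00646 by edgeR), past the threshold in 18 of 18 alternatives. In TP-0903 cells EGFR stood at 345 and 299 CPM, against 302 and 215 CPM in control cells. These groups overlapped in CPM, and within each P number the treated library was 1.14 and 1.39 times its control (log2 fold change 0.32, SE 0.18, adjusted p = 0.288 by edgeR). In TPM they did not overlap, at 54.7 and 48.8 against 45.6 and 35.6 TPM. On log2(TPM + 1) the value was 0.35 (adjusted p = 0.233 by limma). The TP-0903 effect minus the AXL shRNA effect was -0.62 (SE 0.25, adjusted p = 0.12, and 0.0222 with the block).

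ERBB2, the partner receptor without a ligand, fell with AXL shRNA. Its libraries held 73.5 and 57.7 CPM in AXL shRNA cells, against 133 and 102 CPM in control shRNA cells. The groups did not overlap, and the ratio within a P number was 0.552 for P15 and 0.565 for P3. The log2 fold change was -0.84 (SE 0.18, adjusted p = 0.0105 by edgeR). Without AXL shRNA P3 the adjusted p was 0.061 and without control shRNA P15 it was 0.0552. TP-0903 cells held 115 and 93.0 CPM and control cells 93.1 and 89.6 CPM (log2 fold change 0.18, SE 0.18, adjusted p = 0.558). The effects of the treatments differed by 1.03 (SE 0.26, adjusted p = 0.0298), and this call was lost without AXL shRNA P3 (0.0824), TP-0903 P17 (0.0935), control P17 (0.0823), control P4 (0.0793) or control shRNA P15 (0.0762).

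ERBB2 lies at chr17:39687914-39730426 on the plus strand (GRCh38, GENCODE 29), and 2 genes on the opposite strand overlap it. MIEN1, which overlaps its end and shares 1931 bases, and PGAP3, an enzyme of lipid-anchor remodelling that shares 8884 bases, were looked up for this overlap after values had been seen. MIEN1 stood at 23.6 and 22.1 CPM in AXL shRNA cells and at 58.9 and 61.1 CPM in control shRNA cells (log2 fold change -1.39, SE 0.12, adjusted p = 5.50e-04). PGAP3 fell as well (log2 fold change -1.64, SE 0.20, adjusted p = 0.00125). All 3 overlapping genes were lower in AXL shRNA cells. The strand of the reads is not stated, so reads from the shared bases cannot be told apart.

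The TPM of the receptors, which divides by transcript length, allows EGFR and ERBB2 to be compared. The ratio of EGFR TPM to ERBB2 TPM was 2.49 and 3.34 in AXL shRNA cells and 0.806 and 0.876 in control shRNA cells. It was 1.25 and 1.34 with TP-0903 and 1.23 and 1.00 in control cells. ERBB2 was thus the more abundant transcript in both control shRNA libraries. In control P4 the transcripts were nearly level, at 35.59 TPM for EGFR and 35.47 TPM for ERBB2. EGFR was the more abundant in the remaining libraries.

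ERBB3, a receptor with little kinase activity of its own that signals through its partners, did not pass edgeR's test without the block, but did in several other fits. Its level was 7.33 and 3.42 CPM in AXL shRNA cells, against 17.4 and 21.03 CPM in control shRNA cells. It was 0.771 and 1.99 CPM with TP-0903, against 2.62 and 8.99 CPM in control cells. Each treated library was below its control of the same P number, and in CPM neither pair of groups overlapped. In TPM the TP-0903 libraries (0.36 and 2.46) overlapped the control libraries (1.5 and 3.56). With AXL shRNA the log2 fold change was -1.84 (SE 0.65, adjusted p = 0.0597, and 8.93e-04 with the block). It passed in 9 of 18 alternatives, among them DESeq2 (adjusted p = 0.00882), limma-voom (0.0243), library totals (0.0428) and the fit of the 4 libraries alone (0.0251). The TP-0903 value was -2.07 (SE 0.69, adjusted p = 0.1, and 0.00397 with the block), and it passed in 3 of 18 alternatives, which were DESeq2 (0.00699), no count filter (9.68e-11) and the block. The effective length of ERBB3 that the authors' quantification used ran between 1112 bases in TP-0903 P4 and 3879 bases in AXL shRNA P15, so its TPM and CPM differ. On log2(TPM + 1) the AXL shRNA value was -1.52 (adjusted p = 0.0381 by limma) and the TP-0903 value -0.64 (adjusted p = 0.439). The difference between the treatments was -0.23 on counts and 0.89 on TPM, so its direction depends on the scale, and neither passed the test. ERBB3 was higher in control shRNA cells than in control cells, by 1.72 on the log2 scale (SE 0.64), and both AXL shRNA libraries lay within the range of the control cells.

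**Figure D2:**
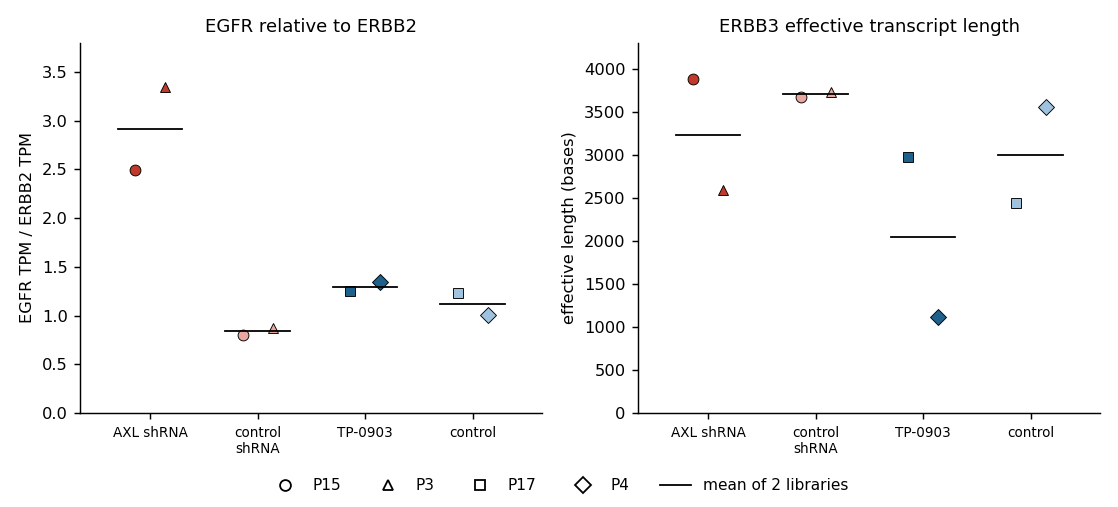
EGFR TPM divided by ERBB2 TPM (left) and the effective transcript length of ERBB3 in bases (right) in each library, with one symbol per P number and a line at the mean of the 2 libraries. The ratio is 2.49 and 3.34 in AXL shRNA cells and below 1 in control shRNA cells, and the shortest ERBB3 length, 1112 bases, is in TP-0903 P4.

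ERBB4, the remaining neuregulin receptor, was close to absent. It had 6 and 4 expected counts in AXL shRNA cells and 6 and 0 in control shRNA cells, 0 and 0 with TP-0903, and 0 and 3 in control cells. A count of 0 allows up to 3 counts, or 0.0811 to 0.0925 CPM in these libraries, and no difference was detectable at this depth. Such limits cover counting error only.

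Among the ligands, TGFA and BTC, both ligands of EGFR, fell with AXL shRNA. TGFA stood at 10.3 and 8.31 CPM in AXL shRNA cells and at 31.7 and 21.9 CPM in control shRNA cells. The groups were far apart, and AXL shRNA cells kept 32.4% and 37.9% of the control level within P15 and P3. The log2 fold change was -1.53 (SE 0.44, adjusted p = 0.0299 by edgeR). Without AXL shRNA P15, AXL shRNA P3 or control shRNA P15 the adjusted p was 0.0791, 0.133 or 0.125, and by limma-voom it was 0.0502. With TP-0903 the level was 49.3 and 20.2 CPM, against 21.6 and 13.3 CPM in control cells. TP-0903 P4 lay below control P17, so these groups overlapped (log2 fold change 1.00, SE 0.43, adjusted p = 0.178, and 0.00389 with the block). The difference between the effects was 2.53 (SE 0.61, adjusted p = 0.0273), a call lost without AXL shRNA P15 (0.0611), AXL shRNA P3 (0.0818), TP-0903 P17 (0.0574), control P4 (0.0795) or control shRNA P15 (0.0766).

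BTC, betacellulin, had 3.92 and 3.30 CPM in AXL shRNA cells and 7.56 and 8.20 CPM in control shRNA cells. The groups did not overlap and the log2 fold change was -1.13 (SE 0.20, adjusted p = 0.0051 by edgeR), past the threshold in 18 of 18 alternatives. TP-0903 cells had 5.46 and 5.21 CPM and control cells 4.35 and 3.86 CPM. Here too the groups did not overlap, but the log2 fold change of 0.38 (SE 0.20) had an adjusted p of 0.266. The difference between the effects was 1.5 (SE 0.28, adjusted p = 0.0115), past the threshold in 17 of 17 alternatives. BTC was higher in control shRNA cells than in control cells, by 0.94 on the log2 scale (SE 0.20), and AXL shRNA cells lay near the level of control cells. The control groups differ in both construct and P number, which cannot be told apart. For the genes other than ERBB3, BTC and NRG1, control shRNA minus control ran between -0.06 (EGFR, SE 0.18) and 0.62 (TGFA, SE 0.43).

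HBEGF, the heparin-binding ligand of EGFR and ERBB4, was the gene that rose with TP-0903. It stood at 14.5 and 6.56 CPM in TP-0903 cells and at 3.6 and 3.47 CPM in control cells. Both treated libraries were above both controls, by 4.02 times for P17 and 1.89 times for P4. The log2 fold change was 1.57 (SE 0.37, adjusted p = 0.038 by edgeR). The call was lost without any 1 of 7 of the 8 libraries: 0.202 without TP-0903 P17, 0.161 without control P17, 0.157 without control P4, 0.0524 and 0.0538 without AXL shRNA P15 and P3, and 0.0559 and 0.0578 without control shRNA P15 and P3. Without TP-0903 P17 the log2 fold change was 0.89. The adjusted p was 0.071 on log2(TPM + 1), 0.0599 by limma-voom and 0.0716 with only the 4 libraries of this comparison. In AXL shRNA cells HBEGF stood at 3.92 and 5.14 CPM, against 5.59 and 4.64 CPM in control shRNA cells. The groups overlapped in CPM (log2 fold change -0.17, SE 0.37, adjusted p = 0.738 by edgeR). In TPM they did not, at 2.23 and 2.9 against 3.89 and 3.11 TPM. On log2(TPM + 1) the value was -0.34 (adjusted p = 0.441 by limma). The difference between the effects was 1.75 (SE 0.52, adjusted p = 0.0535, and 0.0133 with the block), and it also passed by DESeq2 (0.0132) and under library totals (0.0424).

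NRG1, neuregulin and the ligand of ERBB3 and ERBB4, rose with AXL shRNA. Its libraries held 255 and 265 CPM in AXL shRNA cells and 148 and 176 CPM in control shRNA cells. The groups did not overlap (log2 fold change 0.69, SE 0.22, adjusted p = 0.0422 by edgeR). The adjusted p without each library of this comparison was 0.105 (AXL shRNA P15), 0.133 (AXL shRNA P3), 0.183 (control shRNA P15) and 0.0796 (control shRNA P3). On log2(TPM + 1) the value was 0.29 (adjusted p = 0.0548 by limma), and under scaling by library totals 0.49 (adjusted p = 0.1). NRG1 was lower in control shRNA cells than in control cells, with a log2 difference of -0.59 (SE 0.22). In CPM both AXL shRNA libraries lay within the range of the control cells. In TPM they lay below it, at 121 and 136 TPM against 147 and 143 TPM. The effective length of NRG1 was 2517 and 2360 bases in AXL shRNA cells and 2194 and 2209 bases in control shRNA cells. It differed more between P17 and P4, at 2882 and 1985 bases with TP-0903 and 2747 and 1971 bases in control cells. TP-0903 cells held 359 and 262 CPM and control cells 288 and 200 CPM. These groups overlapped in CPM, and the treated library was 1.24 and 1.31 times its control within P17 and P4. The log2 fold change was 0.35 (SE 0.22, adjusted p = 0.342 by edgeR, and 0.0379 with the block). In TPM they did not overlap, at 171 and 181 against 147 and 143 TPM. On log2(TPM + 1) the value was 0.28 (adjusted p = 0.13 by limma).

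AREG and EREG, the ligands amphiregulin and epiregulin, varied more with the P number than with AXL shRNA. AREG stood at 37.3 and 54.4 CPM in AXL shRNA cells (P15 and P3) and at 26.1 and 56.0 CPM in control shRNA cells. EREG stood at 70.3 and 146 CPM in AXL shRNA cells and at 44.9 and 139 CPM in control shRNA cells. Both ligands were higher in P3 than in P15 in both groups. The log2 fold change was 0.16 (SE 0.40, adjusted p = 0.775) for AREG, whose sign turned to -0.03 under scaling by library totals and to -0.01 on TPM, and 0.24 (SE 0.53, adjusted p = 0.75) for EREG. With TP-0903 AREG stood at 18.0 and 15.8 CPM, against 20.7 and 36.9 CPM in control cells. Each treated library was below its control, and the log2 fold change was -0.77 (SE 0.40, adjusted p = 0.263, and 0.0489 with the block). EREG stood at 136 and 94.1 CPM with TP-0903, against 73.2 and 87.0 CPM in control cells (log2 fold change 0.52, SE 0.53, adjusted p = 0.572). The 3 ligand genes AREG, EREG and BTC lie in 1 region of chromosome 4, with the annotated starts of EREG and AREG 80.0 kb apart and those of AREG and BTC 299.6 kb apart, and only BTC passed the test with AXL shRNA.

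**Figure D3:**
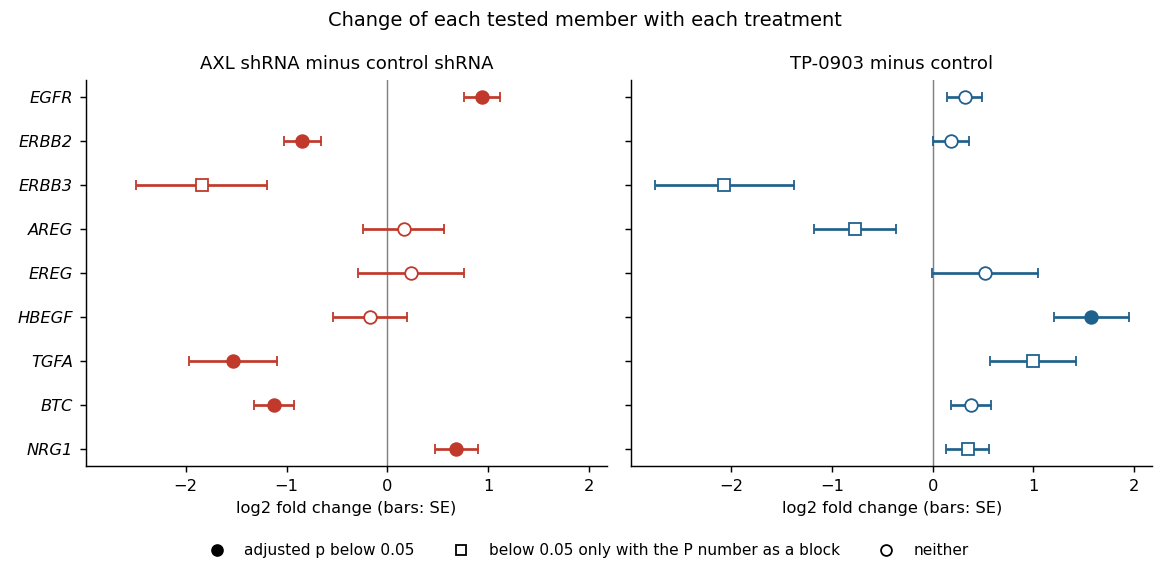
Log2 fold changes of the 9 tested genes (horizontal axes, bars show the SE) with AXL shRNA (left) and TP-0903 (right), each against its control. Filled circles mark an adjusted p below 0.05, open squares one below 0.05 only with the P number as a block; EGFR, NRG1, ERBB2, TGFA and BTC are filled on the left and HBEGF on the right.

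The difference between the effects of the treatments passed the test for 3 of the 9 genes, ERBB2, TGFA and BTC, each lower with AXL shRNA and not called with TP-0903. The background for this difference was 20.6% of all tested genes, 9.82% higher and 10.8% lower. With the block 6 of 9 passed against a background of 36.9%, adding EGFR, AREG (-0.93, adjusted p = 0.285, and 0.0451 with the block) and HBEGF. Of the other named genes, the block brought the adjusted p of the difference to 0.00111 for AXL (0.142 without), 0.0102 for LRIG1 (0.0863), 0.0295 for NRG2 (0.0567), 0.0142 for PTPN1 (0.07) and 0.0375 for HGS (0.131). Of all calls on the difference 47.6% were higher under TMM, 61% under library totals and 63.5% on log2(TPM + 1).

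On the TPM scale NRG1 was the most abundant of the 10 transcripts in every group, at 121 and 136 TPM in AXL shRNA cells, 101 and 109 TPM in control shRNA cells, 171 and 181 TPM with TP-0903 and 147 and 143 TPM in control cells. In no group did its range overlap that of the next gene. EGFR, AREG, ERBB2 and EREG formed a second tier of group means between 22.1 and 63.1 TPM, in which neighbours in the order often overlapped: EGFR with AREG and EREG with ERBB2 in AXL shRNA cells, all neighbours in control shRNA cells, ERBB2 with EREG in TP-0903 cells, and EGFR with AREG and AREG with ERBB2 in control cells. TGFA, HBEGF, BTC and ERBB3 had group means between 1.41 and 13.3 TPM. The order within the lowest tier differed between groups: ERBB3 averaged 7.38 TPM and lay above BTC in control shRNA cells, and below it in the 3 other groups, where in control cells the ranges overlapped.

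Of the summed TPM of the 6 ligands, NRG1 made up 43.8% to 72.4%. AREG was 23.0% and 26.3% of the sum in AXL shRNA cells and 21.9% and 31.1% in control shRNA cells, and 9.15% and 8.69% with TP-0903 and 13.7% and 22.2% in control cells. TGFA was 1.82% and 1.11% in AXL shRNA cells, against 7.58% and 3.29% in control shRNA cells. Its share with TP-0903 was 6.93% and 3.14%, against 3.82% and 2.13% in control cells. These shares are descriptions of single libraries and carry no test.

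**Figure D4:**
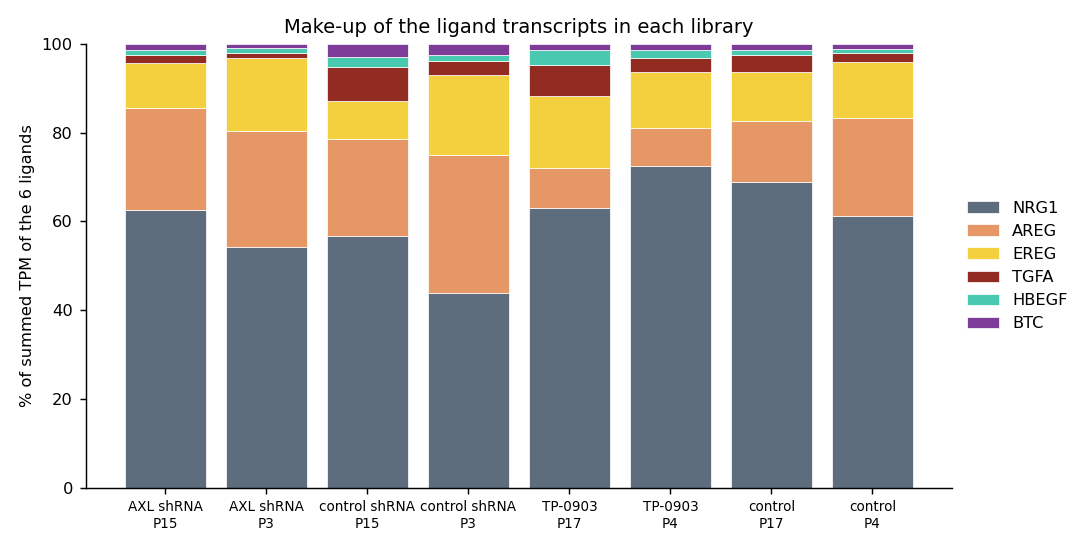
Share of each ligand in the summed TPM of the 6 ligands (vertical axis, %) in each library. NRG1 takes 43.8% to 72.4% of the sum, TGFA is 1.82% and 1.11% in AXL shRNA cells and 7.58% and 3.29% in control shRNA cells, and AREG is 9.15% and 8.69% with TP-0903.

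Promoter sequence is shown for the receptors that moved in opposite directions with AXL shRNA, EGFR and ERBB2. It is also shown for the called ligands other than NRG1, which are TGFA, BTC and HBEGF. Windows of 250 bases before to 50 after the start were taken from RefSeq (GRCh38.p14) for 8 of the 10 genes, and none for ERBB3 and NRG1. Capitals mark the TATA box TATAAA, the CCAAT box CCAAT, the GC box GGGCGG, the AP-1 motif TGANTCA, the CRE TGACGTCA and the STAT motif TTCNNNGAA on either strand. Sequences are written 5′ to 3′ on the strand of the gene. The windows of EGFR (the first of 2) and ERBB2 are chr7:55018767-55019066 and chr17:39687844-39688143, both on the plus strand. Those of TGFA (the first of 2), BTC and HBEGF are chr2:70553777-70554076, chr4:74794474-74794773 and chr5:140346554-140346853, all on the minus strand.
EGFR: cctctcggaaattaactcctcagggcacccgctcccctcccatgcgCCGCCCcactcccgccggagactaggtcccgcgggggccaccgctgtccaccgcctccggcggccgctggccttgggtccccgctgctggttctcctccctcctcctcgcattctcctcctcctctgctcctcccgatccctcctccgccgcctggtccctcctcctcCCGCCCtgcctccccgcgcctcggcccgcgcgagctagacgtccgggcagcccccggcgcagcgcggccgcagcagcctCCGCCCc
ERBB2: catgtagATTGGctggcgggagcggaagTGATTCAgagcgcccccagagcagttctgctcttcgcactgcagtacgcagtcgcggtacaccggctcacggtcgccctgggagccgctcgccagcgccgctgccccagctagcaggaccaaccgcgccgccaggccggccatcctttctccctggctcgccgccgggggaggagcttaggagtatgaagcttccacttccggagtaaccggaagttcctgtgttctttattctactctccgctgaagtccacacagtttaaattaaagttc
TGFA: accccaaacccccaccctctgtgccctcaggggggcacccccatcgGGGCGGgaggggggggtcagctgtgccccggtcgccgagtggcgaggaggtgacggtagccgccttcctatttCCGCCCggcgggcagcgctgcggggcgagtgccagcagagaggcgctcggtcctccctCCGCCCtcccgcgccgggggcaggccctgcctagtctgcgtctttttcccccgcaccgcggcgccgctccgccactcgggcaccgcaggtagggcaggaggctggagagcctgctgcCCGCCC
BTC: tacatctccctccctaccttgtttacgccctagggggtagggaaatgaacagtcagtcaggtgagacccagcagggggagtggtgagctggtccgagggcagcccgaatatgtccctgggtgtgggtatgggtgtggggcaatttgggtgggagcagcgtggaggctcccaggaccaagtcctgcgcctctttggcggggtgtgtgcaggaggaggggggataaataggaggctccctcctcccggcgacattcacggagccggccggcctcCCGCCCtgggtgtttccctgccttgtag
HBEGF: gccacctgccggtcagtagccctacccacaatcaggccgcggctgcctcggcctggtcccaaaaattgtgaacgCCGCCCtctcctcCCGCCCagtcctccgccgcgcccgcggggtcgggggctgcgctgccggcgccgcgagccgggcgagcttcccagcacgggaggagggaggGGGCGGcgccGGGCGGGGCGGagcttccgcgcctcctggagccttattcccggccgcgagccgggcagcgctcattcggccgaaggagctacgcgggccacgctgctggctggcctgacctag

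The EGFR, TGFA and HBEGF windows held 3, 4 and 5 GC boxes and had a GC content of 75.3%, 75.3% and 75.0%. These are the first windows of EGFR and TGFA. The second EGFR window, at 42% GC, held no GC box, but 2 TATA boxes and 2 AP-1 motifs, and the second TGFA window, at 63% GC, held none of the motifs. The BTC window held 1 GC box at 63.0% GC. The ERBB2 window held no GC box, but 1 CCAAT box and 1 match to the AP-1 pattern TGANTCA, with the letters TGATTCA, at 60.7% GC. That window lies wholly within PGAP3 (chr17:39671122-39696797) on the opposite strand, so its letters are also PGAP3 sequence. It was the only ERBB2 window available, so any other start of ERBB2 is not covered. Among 35116 promoter windows of the same length, 45.0% held the GC box, 34.6% the CCAAT box, 11.5% the TATA box, 7.71% the AP-1 motif, 7.66% the STAT motif and 1.85% the CRE. TGFA and BTC, which both fell with AXL shRNA, shared the GC box in the windows printed, and so did EGFR, which rose. A match is a string of letters and not a bound site.

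For the genes whose pattern over the 8 libraries was most like that of a member, the root mean square difference of centred log2 CPM was taken over 11308 genes. EGFR was nearest to CIB1 (0.0872) and ELF4 (0.0902), ERBB2 to PIGT (0.0698) and AES (0.0781), and BTC to TMEM179B (0.0837) and RARA (0.0944). NRG1 was nearest to JMJD6 (0.0966) and ATP13A3 (0.102), and HBEGF to C11orf68 (0.117) and SORCS2 (0.2). TGFA was nearest to ABCA3 (0.189) and PAM (0.254). The nearest genes of AREG were ARHGEF2 (0.237) and RPL37A (0.24), those of ERBB3 were APOH (0.263) and SNHG8 (0.272), and those of EREG were AC006453.2 (0.283) and TAF4B (0.289).

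The counts over gene lists that follow stand against the shares of all tested genes that passed, 37.5% with AXL shRNA and 11.3% with TP-0903, or 51.7% and 26.3% with the block. Of the other ligands of the family, 3 of 5 were tested. NRG4 rose with AXL shRNA, at 5.97 and 5.60 CPM in AXL shRNA cells and 2.24 and 2.24 CPM in control shRNA cells (log2 fold change 1.37, SE 0.27, adjusted p = 0.00747), but on log2(TPM + 1) the value was 0.44 (adjusted p = 0.507). NRG2 fell, at 1.33 and 1.09 CPM in AXL shRNA cells and 3.72 and 3.35 CPM in control shRNA cells (log2 fold change -1.55, SE 0.30, adjusted p = 0.00672). None of the 3 passed with TP-0903 by edgeR without the block or by DESeq2, with 1 higher with the block and 1 at an unadjusted p below 0.05. The median log2 fold change of the 3 was 0.35 with AXL shRNA and -0.14 with TP-0903.

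Among 13 genes of ligand shedding and maturation, 4 rose and 3 fell with AXL shRNA, and 4 rose and 0 fell with TP-0903 (8 and 0 with the block). Their median log2 fold change was 0.14 and 0.49. At an unadjusted p below 0.05, 0 fell with TP-0903, and 0 did by DESeq2. The protease ADAM19 had 208 and 312 CPM in AXL shRNA cells and 19.9 and 16.8 CPM in control shRNA cells (log2 fold change 3.83, SE 0.60, adjusted p = 0.00319). With TP-0903 it had 115 and 43.8 CPM, against 57.0 and 22.0 CPM in control cells, or 2.02 and 1.99 times its control within P17 and P4 (1.01, SE 0.54, adjusted p = 0.272, and 0.00358 with the block). ADAM9 moved in opposite directions: 321 and 313 CPM in AXL shRNA cells against 503 and 468 CPM in control shRNA cells (-0.61, SE 0.11, adjusted p = 0.0057), and 1091 and 1005 CPM with TP-0903 against 621 and 596 CPM in control cells (0.78, SE 0.11, adjusted p = 0.0065, and 0.0589 without TP-0903 P17). The rhomboid protease RHBDL2 rose with both, by 1.28 (SE 0.21, adjusted p = 0.00398) with AXL shRNA and 1.16 (SE 0.21, adjusted p = 0.0156) with TP-0903. The TP-0903 call of RHBDL2 was lost without TP-0903 P17 (0.12), control P17 (0.102) or control P4 (0.0685). RHBDF2, an inactive rhomboid that escorts ADAM17, rose with AXL shRNA by 0.85 (SE 0.17, adjusted p = 0.00819, and 0.0547 without control shRNA P15) and with TP-0903 by 1.15 (SE 0.17, adjusted p = 0.00753, and 0.067 without control P17). ADAM17, the main sheddase of AREG, EREG, HBEGF and TGFA, stood at 0.19 with AXL shRNA (adjusted p = 0.442), a sign that turned to -0.01 under library totals and -0.04 on TPM, and at 0.49 with TP-0903 (adjusted p = 0.121, and 0.0128 with the block).

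Among 24 adaptors and proximal effectors, 7 rose and 1 fell with AXL shRNA (10 and 3 with the block), and 2 rose and 0 fell with TP-0903 (6 and 2 with the block). By DESeq2 0 fell with TP-0903, and 1 did at an unadjusted p below 0.05. Their median log2 fold change was 0.19 with AXL shRNA and 0.09 with TP-0903. The PI3K regulatory subunit PIK3R3 had 40.8 and 31.3 CPM in AXL shRNA cells and 7.01 and 3.47 CPM in control shRNA cells (log2 fold change 2.78, SE 0.32, adjusted p = 0.00107). With TP-0903 it had 17.1 and 17.5 CPM, against 8.52 and 9.02 CPM in control cells, or 2.01 and 1.94 times its control (adjusted p = 0.0793, and 0.00332 with the block). PIK3R1 rose as well with AXL shRNA (1.26, SE 0.16, adjusted p = 0.0015), and with TP-0903 its value was 0.33 (adjusted p = 0.232, and 0.0484 with the block). Another subunit, PIK3R2, fell with AXL shRNA (-0.80, SE 0.18, adjusted p = 0.0117, and 0.0509 without control shRNA P3) and rose with TP-0903 (0.96, SE 0.18, adjusted p = 0.0159). Its TP-0903 call was lost without TP-0903 P17 (0.108), TP-0903 P4 (0.0577), control P17 (0.109) or control P4 (0.0708). The adaptor SHC1 rose with both, by 0.56 (SE 0.11, adjusted p = 0.00762) with AXL shRNA, where TPM gave 0.26 (adjusted p = 0.0791), and by 0.70 (SE 0.11, adjusted p = 0.0091) with TP-0903, a call lost without TP-0903 P17 (0.0833) or control P17 (0.0751).

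Of 23 tested negative regulators and traffic genes, 5 rose and 6 fell with AXL shRNA, and none passed with TP-0903 by edgeR (5 rose with the block, 3 rose by DESeq2, and 5 rose and 1 fell at an unadjusted p below 0.05). Their median log2 fold change was -0.04 with AXL shRNA and 0.07 with TP-0903. The phosphatase PTPN1 rose with AXL shRNA by 1.11 (SE 0.14, adjusted p = 0.00159), the endosomal sorting gene HGS by 0.78 (SE 0.14, adjusted p = 0.00466) and the ubiquitin ligase CBLB by 0.71 (SE 0.13, adjusted p = 0.00549, and 0.0556 on TPM). With TP-0903 PTPN1 stood at 0.49 (adjusted p = 0.0694, and 0.0119 with the block) and CBLB at 0.46 (adjusted p = 0.0605, and 0.016 with the block). The feedback inhibitor ERRFI1 stood at -0.31 with AXL shRNA (adjusted p = 0.546) and at -0.03 with TP-0903 (adjusted p = 0.975), where TPM turned the sign to 0.10. LRIG1, which promotes receptor degradation, had 9.57 and 14.2 CPM in AXL shRNA cells and 19.5 and 21.2 CPM in control shRNA cells (-0.77, SE 0.28, adjusted p = 0.0655, and 0.00806 with the block).

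Of 10 MAPK pathway output genes, 2 rose with AXL shRNA and 1 with TP-0903, and none fell by edgeR without the block. With the block 3 rose and 2 fell with AXL shRNA, and 2 rose and 1 fell with TP-0903. At an unadjusted p below 0.05 1 fell with each treatment, and by DESeq2 0 fell with AXL shRNA and 1 with TP-0903. Their median log2 fold change was 0.35 with AXL shRNA and 0.16 with TP-0903. CCND1, cyclin D, had 1511 and 1341 CPM in AXL shRNA cells and 455 and 557 CPM in control shRNA cells (log2 fold change 1.49, SE 0.16, adjusted p = 9.48e-04). It rose also with TP-0903, to 841 and 856 CPM against 367 and 456 CPM in control cells (1.04, SE 0.16, adjusted p = 0.00848, and 0.0566 without TP-0903 P17 or 0.0674 without control P17). EPHA2, a receptor kinase, rose with AXL shRNA by 0.84 (SE 0.21, adjusted p = 0.0178). The adjusted p of EPHA2 was 0.0901 without AXL shRNA P15, 0.0795 without control shRNA P15, 0.0733 without control shRNA P3, and 0.0672 on TPM. With TP-0903 EPHA2 stood at 0.63 (adjusted p = 0.0991, and 0.0314 with the block).

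Of 11 other receptor kinases known as bypass routes, 3 rose and 1 fell with AXL shRNA, and 0 rose and 1 fell with TP-0903 (4 and 2, and 5 and 2, with the block). With TP-0903, 2 rose by DESeq2 and 3 at an unadjusted p below 0.05. The genes called, named here after their values were seen, were FGFR1, EPHA2 and MET, which rose with AXL shRNA, and FGFR3, which fell with both treatments. For FGFR1, MET and FGFR3 only the call and its direction are given. Whether these calls hold with 1 library left out is not shown. The median log2 fold change of the 11 was -0.23 with AXL shRNA and -0.04 with TP-0903.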

How the data were processed

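RNA-seq gene tables of 8 A549 libraries (4 groups of 2) were used as deposited. Per the submitters' processing notes, reads were aligned with STAR 2.5.3a to GRCh38 and quantified with RSEM; no source names the annotation release or the RSEM version. The expected counts and TPM per gene were computed by the authors with RSEM, and TPM divides by the effective length in the deposited tables. Here, expected counts were rounded to whole numbers, filtered with filterByExpr and fitted with edgeR 4.0.16 (TMM, quasi-likelihood, 1 term per group over all 8 libraries, no block) in R 4.3.3. Adjusted p-values are Benjamini-Hochberg over 17676 genes, with a threshold of 0.05, for 3 contrasts: each treatment minus its control, and the difference of these effects. The fit was tested on simulated data. TPM was tested with limma 3.58.1 on log2(TPM + 1), which understates the change of low genes, and on log2(TPM + 0.1). DESeq2 1.42.0, limma-voom, other scalings, no filter, effective lengths, a block, and leaving out each library were alternatives.

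Libraries held between 30067011 and 44217023 counts, and the biological coefficient of variation was 21.5%. With 2 libraries per group the precision rests on the pooled spread, which the SEs include. The floors given for counts of 0 cover counting error only. Across genes, the deviation of a library from its group mean correlated at 0.559 between AXL shRNA and control shRNA libraries of the same P number and at 0.626 between TP-0903 and control libraries, against 0.177 to 0.38 between groups sharing no number. Libraries of 1 number were treated as pairs on this basis, which comes from the data and not from a label. The pairing enters only the fit with the block and the comparisons within a P number. The main fit, which gives the p-values printed without mention of the block, leaves it out. The blocked value is printed where it changes a call. Libraries of 1 group differed beyond counting noise in 47.6% to 53.6% of genes. Positions are from GENCODE 29, where 58039 of 58302 gene IDs matched, and promoters from RefSeq.

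The members and gene lists were chosen with earlier results of these data known. Named genes are all members, up to 3 called genes with the smallest p per list and treatment in 5 lists, and AXL, ERRFI1, LRIG1 and ADAM17. MIEN1 and PGAP3 were added for their overlap with ERBB2.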

Additional observations from a re-analysis of the deposited data

Results flagged for a closer look

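The effect of TP-0903 minus that of AXL shRNA passed the test of the difference itself (edgeR, adjusted p below 0.05) for 11 of the named genes, on the log2 scale. Among the receptors and ligands these were ERBB2 (1.03), TGFA (2.53) and BTC (1.504). Among the pathway genes the difference was positive for ADAM9 (1.40) and PIK3R2 (1.76), and negative for NRG4 (-1.51), ADAM19 (-2.82), PIK3R3 (-1.80) and PIK3R1 (-0.94). For the genes that overlap ERBB2 it was 1.48 (MIEN1) and 1.15 (PGAP3). ADAM9, PIK3R2, BTC and MIEN1 kept an adjusted p below 0.05 in 17 of 17 alternatives. The 7 others kept it in fewer: 12 of 17 for ERBB2 and TGFA, 11 for PIK3R3 and 10 for PGAP3. PIK3R1 kept it in 9, ADAM19 in 8 and NRG4 in 7. The pathway genes were named because they passed in at least 1 treatment, so their choice is not independent of this difference.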

How the results depend on the processing

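Of all tested genes, 6627 passed with AXL shRNA, and between 4408 and 6105 did with 1 library left out. With TP-0903, 1989 passed, against 3002 by DESeq2, 3515 without a count filter, 4647 with the replicate block and 489 to 1727 with 1 library left out. For the difference 3645 passed, against 6530 with the block and 1855 to 2670 with 1 library left out. Of the family, 5 genes passed with AXL shRNA (2 to 6 with 1 library left out). With TP-0903 1 passed, against 2 by DESeq2, 0 on log2 TPM with either pseudocount, 0 by limma-voom, 0 with only the 4 libraries of the comparison, 5 without a filter, 5 with the block and 0 to 1 with 1 library left out. For the difference 3 passed, against 5 without a filter, 6 with the block and 1 to 4 with 1 library left out.

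Of 1590 single-gene values under an alternative, 38 turned sign, for 14 results, and none of these passed the test. Ranges are over the fits with 1 library left out. With AXL shRNA, AREG was -0.030 under library totals and -0.014 on log2 TPM with either pseudocount (-0.30 to 0.81), and ADAM17 was -0.0095 under library totals, -0.040 on TPM with pseudocount 1 and -0.041 with 0.1 (-0.024 to 0.41). EREG ran between -0.39 and 1.26, and HBEGF between -0.38 and 0.0032. With TP-0903, ERRFI1 was 0.10 on TPM with pseudocount 0.1, 0.097 with 1, 0.12 by limma-voom and 0.11 with the block (-0.54 to 0.82). AXL ran between -0.064 and 1.06, NRG2 between -0.53 and 0.087, NRG4 between -0.37 and 0.16, and MIEN1 between -0.035 and 0.26. For the difference, ERBB3 was 0.79 with effective lengths, 0.74 on TPM with pseudocount 0.1 and 0.89 with 1 (-1.05 to 0.94), RHBDL2 was 0.016 under library totals (-0.33 to 0.090), and EPHA2 was 0.045 on TPM with either pseudocount (-0.54 to 0.075). EREG ran between -0.74 and 0.91, and ERRFI1 between -0.22 and 1.14. The causes were not tested. Leaving out 1 library leaves its group with 1, assumed to vary like the others. ERBB4 had too few counts to be tested at this depth. The block ended none of the calls on the family, and the calls that it added are given above with their blocked values.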
